A study of Drosophila melanogaster with 3 samples.

Results

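The weak but repeated peaks of Knirps are 5922 summits of the pooled ChIP-seq peak list that ranked below the authors' optimal list and lay within 100 bp of a summit in each of the 3 replicate lists. They were chosen by the pooled signal value, which sets the rank, and by the distance between pooled and replicate summits. The pooled list held 30000 rows, of which the strongest 7129 formed the optimal list. The weak rows, ranked 7130 to 30000, numbered 22871, so the repeated ones made up 25.9% of them. The remaining 16949 weak rows, called the other weak rows here, had a summit within 100 bp in 2 replicates in 9014 cases, in 1 replicate in 6612 cases and in no replicate in 1323 cases. Only rank and distance were used in the choice, so place in genes, neighbouring genes and sequence could be compared between the repeated and the other weak rows.

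Chromatin immunoprecipitation with sequencing (ChIP-seq) pulls down a protein with the DNA it holds and maps the pieces as peaks, each with a summit. The embryos came from a transgenic Drosophila melanogaster line, kni-GFP, which stably expresses the protein of kni with green fluorescent protein (GFP) fused to its C-terminal end, and an antibody against GFP was used. Whole embryos of mixed sex, collected over 0 to 14 h, gave 3 biological replicates whose chromatin was broken by sonication into pieces of 200 to 800 bp. All replicates shared the genotype and age, no second condition was present, and the lists were called against 1 shared control alignment. The tissue was the whole organism over many stages, so a weak peak present in few cells and a weak peak present in many cells cannot be told apart. The labels do not say whether the endogenous kni gene was intact in this line.

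Knirps is a zinc-finger protein of the nuclear receptor family, although no ligand is known for it, and it acts mainly as a short-range repressor of transcription. As the product of a gap gene it is made in broad bands of the early embryo, where it helps to set the borders of other gap genes and of the stripes of pair-rule genes such as eve. Later it takes part in the branching of the tracheal system together with its close relative encoded by knrl.

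Sequence at repeated weak peaks is shown for 2 kinds of example, chosen after the values were known. Each window reaches 100 bp either side of the summit and runs 5' to 3' on the plus strand of the RefSeq copy of Release 6 (dm6). Capitals mark AGAGCA or its reverse complement, taken here as the core of the Knirps site. The first 4 windows hold that core: the knrl window, chr3L:20612908-20613108 in an intron, both ftz-f1 windows, chr3L:18781642-18781842 and chr3L:18760651-18760851 in introns, and the ase window, chrX:457178-457378 in an intron. The last 4 windows lack it and lie at developmental genes that had no optimal peak in reach: hb, chr3R:8689979-8690179 between genes, ftz, chr3R:6863984-6864184 upstream of its start, cas, chr3R:5720235-5720435 between genes, and salr, chr2L:11363147-11363347 in an intron.
knrl: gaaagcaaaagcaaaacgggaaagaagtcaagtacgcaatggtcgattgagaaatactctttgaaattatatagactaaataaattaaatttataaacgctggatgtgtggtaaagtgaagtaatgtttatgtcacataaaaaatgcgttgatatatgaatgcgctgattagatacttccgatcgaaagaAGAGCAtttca
ftz-f1, rank 10097: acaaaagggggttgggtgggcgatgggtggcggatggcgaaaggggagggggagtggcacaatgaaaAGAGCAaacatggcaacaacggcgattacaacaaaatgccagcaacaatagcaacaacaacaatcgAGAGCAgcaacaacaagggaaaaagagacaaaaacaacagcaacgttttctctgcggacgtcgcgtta
ftz-f1, rank 11332: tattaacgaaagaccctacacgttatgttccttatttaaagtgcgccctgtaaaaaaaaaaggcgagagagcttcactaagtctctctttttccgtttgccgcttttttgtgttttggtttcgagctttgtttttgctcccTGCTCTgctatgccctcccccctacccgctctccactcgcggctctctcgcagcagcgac
ase: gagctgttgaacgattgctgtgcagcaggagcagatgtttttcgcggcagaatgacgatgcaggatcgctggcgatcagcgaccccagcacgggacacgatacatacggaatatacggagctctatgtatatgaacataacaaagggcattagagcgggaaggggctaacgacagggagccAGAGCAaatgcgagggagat
hb: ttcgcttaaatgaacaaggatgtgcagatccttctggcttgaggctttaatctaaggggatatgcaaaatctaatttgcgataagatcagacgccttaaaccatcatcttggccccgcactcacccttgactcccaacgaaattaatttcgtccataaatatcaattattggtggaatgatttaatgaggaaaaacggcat
ftz: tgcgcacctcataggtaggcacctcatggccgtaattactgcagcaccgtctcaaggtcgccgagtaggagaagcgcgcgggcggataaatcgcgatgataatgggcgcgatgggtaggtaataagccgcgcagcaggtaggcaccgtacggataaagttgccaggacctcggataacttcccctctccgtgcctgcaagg
cas: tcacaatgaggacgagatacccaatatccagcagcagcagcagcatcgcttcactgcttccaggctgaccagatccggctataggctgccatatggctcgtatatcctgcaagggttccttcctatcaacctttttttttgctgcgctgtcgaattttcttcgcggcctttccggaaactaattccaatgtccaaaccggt
salr: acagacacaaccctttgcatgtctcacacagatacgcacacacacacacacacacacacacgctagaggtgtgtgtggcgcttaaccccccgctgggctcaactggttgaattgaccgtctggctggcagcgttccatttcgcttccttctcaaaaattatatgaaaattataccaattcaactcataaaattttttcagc
Of the other 13 words searched, the ftz window held those of GAGA factor (GAGAG), of Zelda (CAGGTA) and of GATA factors (TTATCA). The hb window held that of Caudal (TTTATG) alone, and the salr window held that of Caudal and the repeat CACACA.

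The repeated weak peaks were the stronger of the weak rows, which follows in part from how they were chosen and is given as a description. Their pooled signal value ran from 46.4 to 188 with a median of 127, against a median of 70.2 for the other weak rows. At the upper edge the last optimal peak, rank 7129, and the first repeated weak peak, rank 7130, both had a signal value of 188. Of the repeated ones 4253 (71.8%) lay in the upper of 3 equal bands of the weak ranks, 7130 to 14753, a further 1530 in the middle band and 139 in the lower band. Seen from the rows, 55.8% of the upper band, 20.1% of the middle band and 1.82% of the lower band had a summit in all 3 replicates. Their median rank was 13640 in replicate 1, 13778 in replicate 2 and 14126 in replicate 3, so no replicate placed them much higher than another.

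**Figure D1:**
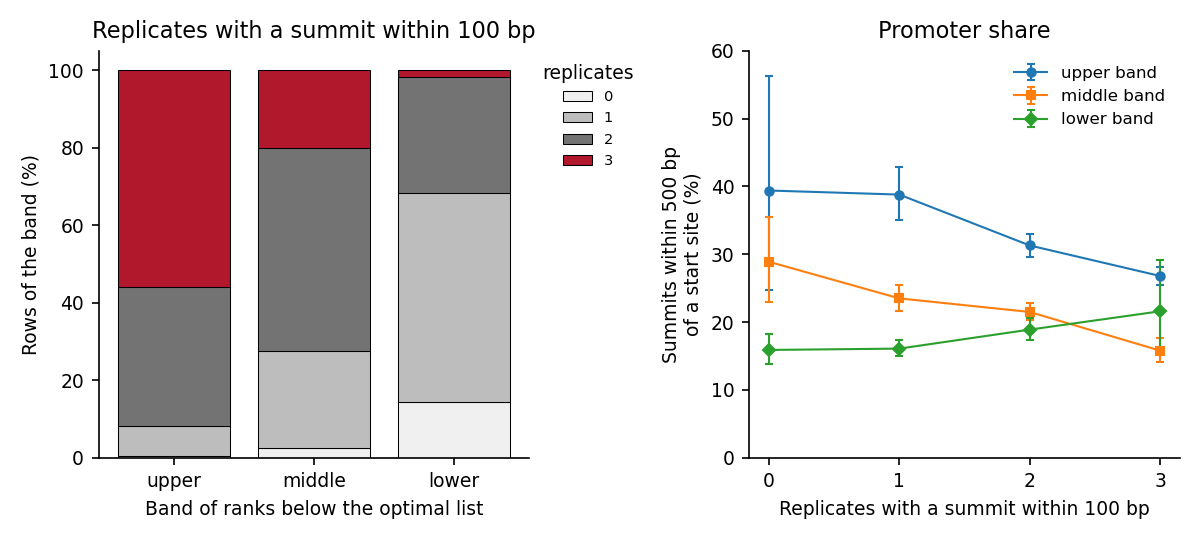
Left, the share of weak rows in each band of ranks (percent) with a summit within 100 bp in 0, 1, 2 or 3 replicates. Right, the share of summits within 500 bp of a protein-coding start site (percent) by number of replicates with a summit, with Wilson 95% intervals, which in the upper band runs from 39.4% with none to 26.8% with all 3.

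Most of them were weak in each replicate as well. Of the 5922, 4523 (76.4%) were never among the strongest 7129 rows of a replicate list, 1232 were so in 1 replicate, 159 in 2 and 8 in all 3. Just inside the limit on distance, 582 repeated weak peaks had their farthest replicate summit at 91 to 100 bp, with a median signal value of 126 and 21.5% at promoters. Just outside it, 477 rows at over 100 and up to 110 bp had a median of 116 and 24.7% at promoters.

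At the gap and pair-rule genes, which set up the segments of the embryo, 27 repeated weak peaks lay in the territory of 12 of 17 genes, where a territory is the gene with 5 kb either side. Of all 13945 protein-coding genes, 5609 (40.2%) had at least 1 repeated weak peak in their territory, 6337 (45.4%) had an optimal peak, and 8602 (61.7%) had another weak row. By list, 4 of 7 gap genes and 8 of 10 pair-rule genes had one. The territories of gap genes had a median length of 13 kb and those of pair-rule genes 12.7 kb, against 12.2 kb for all genes. Among the 27 peaks 10 lay in introns, 10 between genes, 4 at promoters, 2 in coding exons and 1 in a 5' UTR.

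Of the gap genes, hb, which encodes the zinc-finger factor Hunchback of the anterior embryo, had 1 repeated weak peak and no optimal peak. Its summit lay at position 8690079 of chromosome 3R, 4521 bp downstream of the nearest start site, with a signal value of 75.5 and pooled rank 19959. It ranked 21795, 26406 and 22687 in replicates 1 to 3. It was thus weak in every replicate but stood at the same place, within 30 bp of the pooled summit in each.

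The gene knrl, the relative of kni, had 5 repeated weak peaks beside 4 optimal ones. The strongest, at position 20613008 of chromosome 3L in an intron, had pooled rank 8010 and ranked 5591, 12476 and 9768 in the replicates. Another, 271 bp upstream of a knrl start site, went against the usual order. It ranked 1746 in replicate 1, 18045 in replicate 2 and 2030 in replicate 3, but only 16326 in the pooled list. Its summit lay 201 bp from an optimal summit, and the matched replicate summits lay 80, 2 and 65 bp from it. The matched rows of replicates 1 and 3 were thus among the strong peaks of their lists, and that of replicate 2 was not. Whether these rows belong to this peak or to the optimal peak beside it was not tested.

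Kr, which encodes the Krüppel zinc-finger factor of the central embryo, had 2 repeated weak peaks. One lay 7 bp downstream of its start site with pooled rank 7704 and replicate ranks 8816, 6653 and 7903. The other lay in coding sequence at pooled rank 12268 and ranked 8725, 16120 and 18234. The terminal gap gene hkb, a zinc-finger gene, had 1 at rank 18217, whose nearest start site belongs to CG1103.

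The remaining gap genes had none. The territory of kni itself held 8 optimal peaks and 9 other weak rows, the best of which ranked 14158 and had a summit in 2 replicates. At gt, which encodes a leucine-zipper factor, there was no optimal peak and 1 other weak row, at rank 18722 with a summit in 2 replicates. The territory of tll, an orphan nuclear receptor gene of the embryo's ends, had 1 optimal peak and 3 other weak rows.

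Among pair-rule genes, eve and ftz, both of which encode homeodomain factors, had a repeated weak peak and no optimal peak. At eve, whose stripes are a classic target of repression by Knirps, the summit at position 9981789 of chromosome 2R lay 2470 bp downstream of the start site, between genes. It had a signal value of 174 and pooled rank 7962. It ranked 7034 in replicate 1, 23406 in replicate 2 and 14977 in replicate 3, so replicate 1 placed it inside the size of the optimal list and replicate 2 far below it. At ftz the summit lay 240 bp upstream of the start site, at position 6864084 of chromosome 3R, with a signal value of 140 and pooled rank 10648. It ranked 8734, 12661 and 21893, again with a wide spread, here with replicate 3 lowest.

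The other pair-rule genes with repeated weak peaks had optimal peaks as well. The Runt factor gene run had 2 such peaks, the zinc-finger gene odd 3, the forkhead genes slp1 and slp2 1 and 3, the zinc-finger gene opa 3 and the nuclear receptor gene ftz-f1 4. One at slp2 lay exactly at the start site and 228 bp from an optimal summit, and ranked 16735, 6630 and 16818. The strongest of ftz-f1, in an intron at pooled rank 8012, ranked 10599, 8702 and 6169. No repeated weak peak lay at hry, which had 4 optimal peaks, or at prd, which had none.

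Across the 27 peaks, 20 were never among the strongest 7129 rows of a replicate list, 6 were so in 1 replicate and 1 in 2. Of the 27, 13 lay over 5 kb from any optimal summit and 2 within 500 bp of one. The core AGAGCA stood within 100 bp of the summit in 3 of them, those at knrl and ftz-f1 shown above. Of all repeated weak peaks 11.7% had it, and of the other weak rows 10.7%. The 27 were not tested against these shares.

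**Figure D2:**
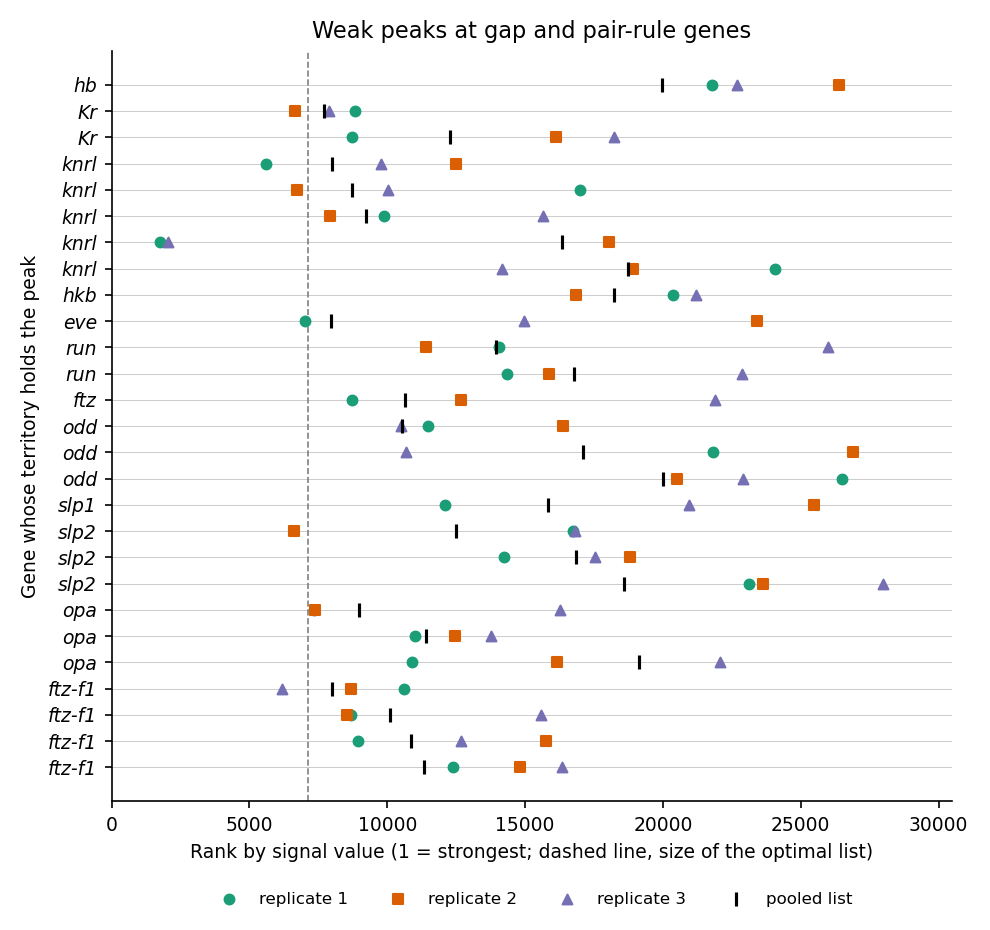
Rank by signal value of each of the 27 repeated weak peaks at gap and pair-rule genes, in the pooled list (black bar) and in replicates 1 to 3 (coloured points), where rank 1 is the strongest and the dashed line is the 7129 rows of the optimal list. Most points lie right of the line, and 1 peak of knrl has replicates 1 and 3 far left of its pooled rank of 16326.

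Over the whole genome, repeated weak peaks and optimal peaks tended to lie at the same genes. Of genes with an optimal peak in the territory 62.2% also had a repeated weak one, against 21.9% of genes without. This split was not matched for territory length. It includes the 1040 repeated weak peaks within 500 bp of an optimal summit, and it is not given for the other weak rows. In total 1667 genes, 12% of those tested, had a repeated weak peak and no optimal peak. Territories overlap between neighbouring genes, so 1 peak can count for several of them, and 683 repeated weak peaks lay in no territory. Counted by the nearest start site instead, the 5922 belonged to 2863 genes. The territories of genes with such a peak had a median length of 12.9 kb against 11.8 kb for genes without.

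Developmental genes beyond hb, eve and ftz were among those with a repeated weak peak and no optimal peak, and these were picked out after their values were seen. The segment polarity gene gsb, the Hox gene pb, the terminal gene tsl, the dorsoventral protease gene tld and the spalt gene salr each had at least 1. Among genes of their lists without an optimal peak these were 1 of 1, 1 of 2, 1 of 2, 1 of 4 and 1 of 1. In the head, Dpp and Notch lists 0 of 2 such genes had a repeated weak peak, and in the Egfr, Wingless and gut lists 0 of 1. The share over all genes without an optimal peak was 21.9%. At tld the summit lay 204 bp upstream of the start site at pooled rank 7451 and ranked 4894, 6551 and 11043, inside the size of the optimal list in 2 replicates. At pb it lay in an intron at rank 7628 and ranked 15705, 7426 and 5970. The peak of salr, in an intron at rank 8180, ranked 7544, 9125 and 17241. Genes of other kinds also had a repeated weak peak and no optimal peak. Of those without an optimal peak, 17 of 151 chemosensory receptor genes and 15 of 82 cuticle protein genes had a repeated weak one. The same held for 11 of 32 mitochondrial ribosomal, 5 of 21 cytosolic ribosomal and 4 of 29 proteasome subunit genes.

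Optimal peaks lay in 16 of the 27 proneural and neural genes. A repeated weak peak lay in 19 (70.4%), against 40.2% of all genes and 44.9% of genes of the same length. In all genes without an optimal peak the share was 21.9%, and of the 11 on this list 6 had one: the proneural genes sc and ase, the zinc-finger genes ham and cas, the glial homeobox gene repo, and hb, which is also on that list. The cas peak, 3530 bp upstream of a start site, had pooled rank 8782 and ranked 8283, 9025 and 11675. The ham peak lay 484 bp upstream of a start site at rank 8963 and ranked 5928, 14487 and 7962. At repo the summit lay 1 bp upstream of the start site at rank 13069 and ranked 21414, 21066 and 8930. The ase peak, with the core AGAGCA, had rank 13467 and ranked 26503, 10460 and 15795. The replicate ranks of cas lay close together, while those of repo and ase lay far apart.

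In the mesoderm list, where 3 of 5 genes without an optimal peak had a repeated weak one, the FGF receptor gene htl and the muscle factor genes nau and slou had repeated weak peaks without an optimal peak. In the ecdysone list 2 of 2 genes without an optimal peak had repeated weak peaks. They were br, a zinc-finger gene with a BTB domain, and svp, an orphan nuclear receptor gene. The strongest of these at br and at svp lay nearest to the start sites of Mur2B and Sfp87B, and that at nau nearest to CG10365, so these peaks count for br, svp and nau by territory.

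Shares by list are set against the genome in the plot of gene lists. In 21 of the 27 lists more genes had a repeated weak peak than the 40.2% of all genes. Long territories hold more peaks, and against all genes weighted to the same 10 classes of territory length 23 lists were higher and 4 lower. At the top were gut and endoderm genes with 12 of 13, Hox genes and cofactors with 10 of 11, maternal and terminal genes with 9 of 10 and tracheal genes with 17 of 19, where the shares among genes of the same length were 58.5%, 62.7%, 51.7% and 57.9%. Segment polarity genes followed with 11 of 13, where the share among genes of the same length was 56.7%. Optimal peaks lay in 12, 9, 8, 18 and 12 genes of these lists, in the same order. The weighting by length took no account of optimal peaks, and genes with an optimal peak more often had a repeated weak one. Enhancer of split complex genes had 8 of 11, but these 8 genes lie side by side and shared 4 peaks.

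Structural and receptor gene families were at the low end. Of 12 yolk and chorion genes 1 had a repeated weak peak, of 179 chemosensory receptor genes 34 (19%), of 95 cuticle protein genes 23 (24.2%) and of 12 muscle structural genes 4 (33.3%), below the 32.4%, 35.8%, 33.5% and 52% of genes of the same length. Chemosensory receptor genes also had few optimal peaks, in 28 of 179. The housekeeping lists lay above genes of the same length, with 35 of 93 cytosolic ribosomal protein genes (37.6% against 32.8%), 34 of 73 mitochondrial ribosomal protein genes (46.6% against 30.5%) and 19 of 48 proteasome subunit genes (39.6% against 32.9%). Optimal peaks lay in 72 of the 93, 41 of the 73 and 19 of the 48, and the weighting by length took no account of them. Of the 21 cytosolic ribosomal protein genes without an optimal peak, 5 had a repeated weak one. No test was made of these shares.

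**Figure D3:**
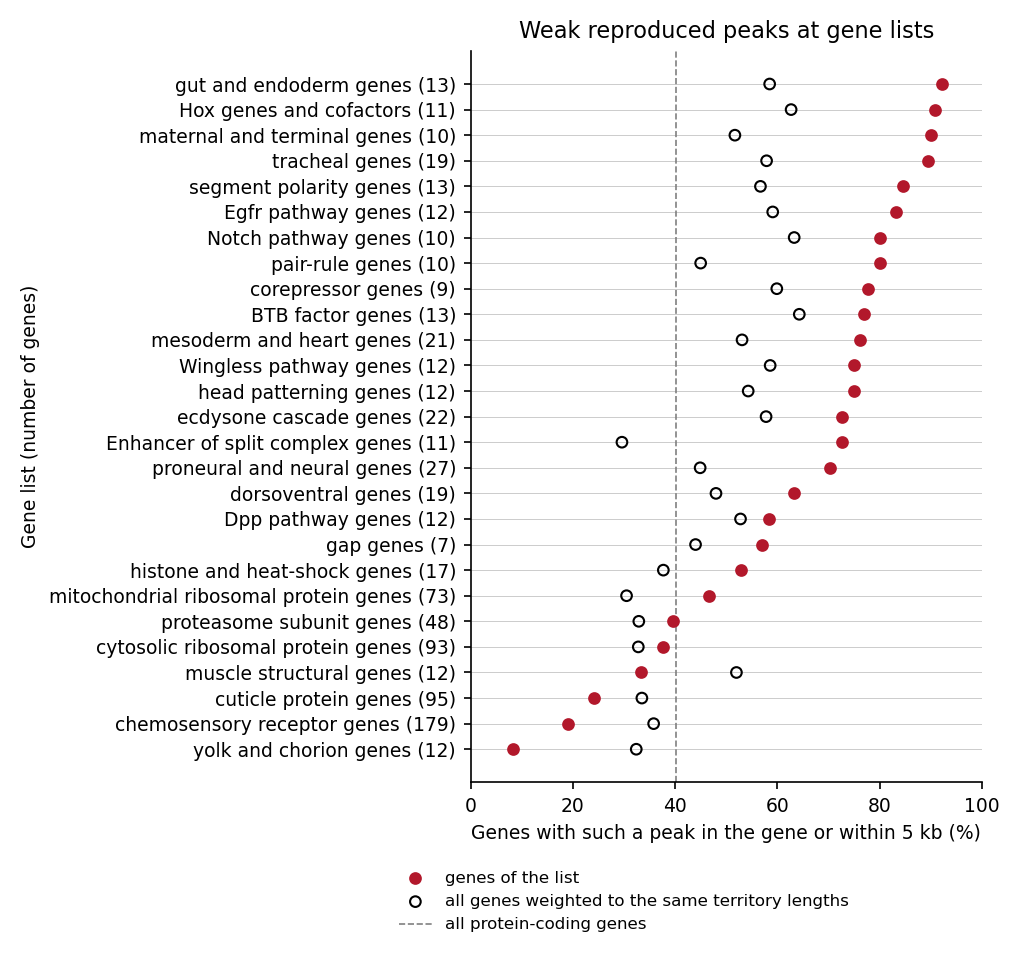
Share of the genes of each list with a repeated weak peak in the gene or within 5 kb (percent, red), beside all genes weighted to the same territory lengths (open circles) and all 13945 protein-coding genes (dashed line, 40.2%). The chemosensory, cuticle, muscle, and yolk and chorion lists lie left of their open circles. All other lists, patterning and housekeeping, lie right of them.

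The strongest repeated weak peaks in the territories of the developmental lists are given next. In the dorsoventral list it was an intron of sog, which encodes an inhibitor of BMP signals, at rank 7164 with replicate ranks 8945, 6618 and 7540, followed by Doc1, a T-box gene, at rank 7307. The tracheal list was led by btl, the FGF receptor gene of the trachea, with a summit 152 bp upstream of its start site at rank 7366 and replicate ranks 5426, 8396 and 18539. In the ecdysone list Eip75B led, a nuclear receptor gene with 14 repeated weak and 30 optimal peaks, at rank 7176 with replicate ranks 8836, 7152 and 3969.

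Among signalling genes, Egfr and its target pnt led the Egfr list at ranks 7308 and 7478, fz and Notum the Wingless list at 7265 and 7808, and Delta and mam the Notch list at 7748 and 7797. The patterning lists were led by hh at 7681 and ptc at 7846 for segment polarity, cnc at 7336 and oc at 7395 for the head, pum at 7238 and bcd at 7610 for maternal and terminal genes, and hth at 7231 and Antp at 7489 for Hox genes and cofactors. For the remaining regulators, tkv followed sog in the Dpp list at 7254, ttk followed btl at 7431, Hr39 followed Eip75B at 7651 and stumps followed Doc1 in the mesoderm list at 8261. The neural genes pros and wor stood at 7315 and 7444, the gut genes otp and dve at 7418 and 7446, the BTB genes lola and chinmo at 7243 and 7331, the corepressor genes Sin3A and gro at 7605 and 7981, and E(spl)m7-HLH and E(spl)m8-HLH shared the gro peak. Several of these peaks lay nearer to a start site of another gene: that of hh 148 bp upstream of CG31365, and those of Antp, tkv, mam, ttk, Hr39 and otp nearest to CG46458, Cyp4ac1, CG18371, CG42693, l(2)k14505 and Cib2. The gro peak lay in a coding exon, nearest to the start site of E(spl)m8-HLH. These ranks lie near the edge of the optimal list because the strongest peak of each gene was taken, so they are a description.

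In the other lists the strongest peak often lay nearest to the start site of a neighbour. Yp3, a yolk protein gene, had it at 80 bp from a start site of Pdcd4 at rank 7152, RpS24 in a 3' UTR nearest to Ugt317A1 at 7149, RpS4 at the start of Srrm1 at 7285, and mRpL49 and mRpL34 nearest to CG4645 and Dg at 7305 and 7437. The receptor genes Ir52d and Gr47b had it nearest to Pgant1 and CG13204 at 7173 and 7377, and the proteasome genes Prosbeta2R2 and Rpn12 at the starts of cno and UQCR-C2 at 7253 and 7255. In the same way Tm1 and Act88F had it nearest to CG45218 and CG6118 at 7460 and 8058, and Cpr66D nearest to CG13305 at 7311. Cpr49Ae at 8204, Hsc70-4 at 8392 and Hsc70-3 at 8656 had it nearest to their own start sites. Over the 45 distinct strongest peaks of the lists other than gap and pair-rule genes, 20 lay nearer to a start site of another gene than the one listed.

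Some long genes carried many repeated weak peaks. The Hox cofactor gene hth had 33, beside 21 optimal peaks and 65 other weak rows, and the cell adhesion gene kirre had 28. RapGAP1 and the zinc-finger gene jing had 22 each, Svil 19, osp 18, the laminin gene wb 18 and CG42238 17. In total 323 genes had at least 5. The strongest of hth, in an intron at rank 7231, ranked 4526, 11452 and 29801, so its presence in all 3 lists rested in replicate 3 on a row at the very end of the list.

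The 12 strongest repeated weak peaks had signal values of 188 and pooled ranks from 7130 to 7145. Of these 5 lay at promoters, 6 in introns and 1 between genes, and 3 held AGAGCA. Over all 5922 the shares were 23.9%, 47.2% and 25.1%, and 11.7% held AGAGCA. The 12 are few and were not tested against these shares. Their nearest start sites were those of CG10734, mtd, CG3777, CG43293, Cdk4, pyr, Tnks, bmm, Pvf3, CG18766, Drak and CG11498. At pyr, which encodes an FGF ligand, the summit lay 7 bp upstream of the start site and ranked 10490, 11693 and 4872. Near Cdk4, a cell cycle kinase gene, the summit ranked 6566, 11075 and 9971. The peak of mtd, 213 bp downstream of a start site, ranked 9505, 7448 and 8697, and that of Drak 6444, 5654 and 25820. Of the 12, 10 were inside the strongest 7129 rows of at least 1 replicate.

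The 8 peaks that stood among the strongest 7129 rows in all 3 replicates, and still fell below the optimal list when pooled, were named after their values were seen. They lay nearest to start sites of CG3777, Rab8, CG10283, CG13921, Tctp, aay, wech and SmydA-2. The most extreme lay 4 bp from a start site of CG13921 and ranked 266, 323 and 1947 in the replicates against 8838 in the pooled list. Its signal value was 267, 329 and 126 in the replicates and 162 in the pooled list, although signal values of different lists are not on a stated common scale. The matched replicate summits of the CG13921 peak lay 98, 66 and 29 bp from it, and an optimal summit lay 200 bp away. Which of these pooled peaks the replicate rows belong to was not tested. In the whole set, 3 repeated weak peaks had a matched replicate summit that also lay within 100 bp of an optimal summit. Of the 8, 6 lay 200 to 260 bp from an optimal summit.

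This nearness was a feature of the whole set. Within 500 bp of an optimal summit lay 17.6% of the repeated weak peaks and 12% of the other weak rows. Of the 1040 near ones 956 stood at least 150 and under 250 bp away, while 0 of the 5922 stood nearer than 150 bp. The smallest gap between neighbouring summits of the pooled list was 199 bp, so these stood at about the closest spacing the list holds. By band, 19.8% of the repeated and 21.6% of the other weak rows lay within 500 bp in the upper band, 11.3% and 12.8% in the middle band, and 19.4% of 139 and 7.01% of 7484 in the lower band. The repeated peaks thus had the lower share in the upper and middle bands and the higher share in the lower band, and these shares were not tested. At the far end, 2084 repeated weak peaks (35.2%) lay over 5 kb from any optimal summit.

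In place, the repeated weak peaks resembled the other weak rows more than the optimal peaks. They lay in introns in 47.2% of cases, between genes in 25.1%, at promoters (within 500 bp of a protein-coding start site) in 23.9%, in coding exons in 1.74%, in 3' UTRs in 1.33% and in 5' UTRs in 0.827%. Optimal peaks lay at promoters in 37% and in introns in 40.7%. Of all protein-coding genes 1549 (11.1%) had a repeated weak peak within 500 bp of an own start site.

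Against the other weak rows, taken at all ranks, 2 of 6 classes differed. Promoters held 1413 of 5922 repeated weak peaks (23.9%, Wilson 95% interval 22.8 to 25) and 3733 of 16949 others (22%), a difference of 1.84 percentage points (Fisher's exact test, two-sided, adjusted p = 0.0115 by Benjamini-Hochberg over 6 classes). Coding exons held 103 (1.74%) and 701 (4.14%), a difference of -2.4 points (same exact test, adjusted p = 2.30e-19). Introns at 47.2% and 46.1% (adjusted p = 0.263) and sequence between genes at 25.1% in both (adjusted p = 0.944) did not pass the exact test, nor did the 5' UTR (adjusted p = 0.295) and 3' UTR classes (adjusted p = 0.263). The promoter difference was 0.979 points and did not pass when only replicates 1 and 2 were required (exact test, adjusted p = 0.163), nor with promoters taken as 1000 bp (0.964 points, adjusted p = 0.51) or with rows within 500 bp of an optimal summit left out (1.6 points, adjusted p = 0.0518). These tests take each peak as a unit, though neighbouring peaks are not independent, so their p-values are too small.

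At equal rank the promoter difference turned round. In the upper band promoters held 26.8% of 4253 repeated weak peaks and 32.7% of 3371 others, a difference of -5.83 points (Fisher's exact test, adjusted p = 2.03e-07). In the middle band they held 15.8% of 1530 and 22.4% of 6094, a difference of -6.58 points (same exact test, adjusted p = 5.03e-08). In the lower band the 21.6% of 139 and 16.9% of 7484 did not differ beyond the threshold of the exact test (adjusted p = 0.511). In the other weak rows the promoter share thus went from 32.7% through 22.4% to 16.9% down the ranks, and 71.8% of the repeated weak peaks but 19.9% of the others lay in the upper band.

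Over 20 bins of rank, with the other weak rows weighted to the ranks of the repeated ones, promoters held 23.9% against 30.7%, a difference of -6.82 points with an odds ratio of 0.695 (Mantel-Haenszel estimate, 95% interval 0.64 to 0.754; exact conditional test over rank bins, adjusted p = 1.30e-17). The repeated peaks had the lower promoter share in 14 of the 16 bins with at least 20 of them. Introns were commoner in the repeated ones by 3.96 points (same exact test, adjusted p = 1.34e-05) and sequence between genes by 2.83 points (adjusted p = 0.0011). The latter difference did not pass the same exact test with summits within 50 bp (0.514 points, adjusted p = 0.668) or without replicate 1 (1.16 points, adjusted p = 0.578). Coding exons differed by 0.246 points and did not pass (same exact test, adjusted p = 0.397), but with summits within 200 bp their share was lower in the repeated peaks by a difference of -0.465 points, which passed (same exact test, adjusted p = 2.03e-04). This weighting was added after the shares by band had been seen. Its tests also take each peak as a unit, so their p-values are too small.

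**Figure D4:**
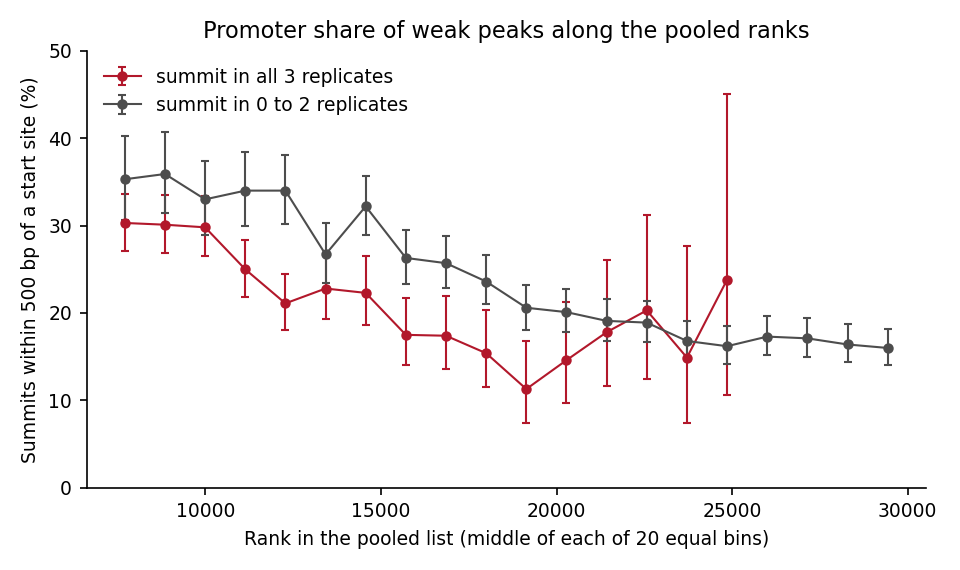
Share of summits within 500 bp of a start site (percent) by pooled rank in 20 equal bins, for repeated weak peaks (red) and the other weak rows (grey), with Wilson 95% intervals and bins of at least 20 peaks. The red points lie lower in 14 of 16 bins where both are drawn.

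**Figure D5:**
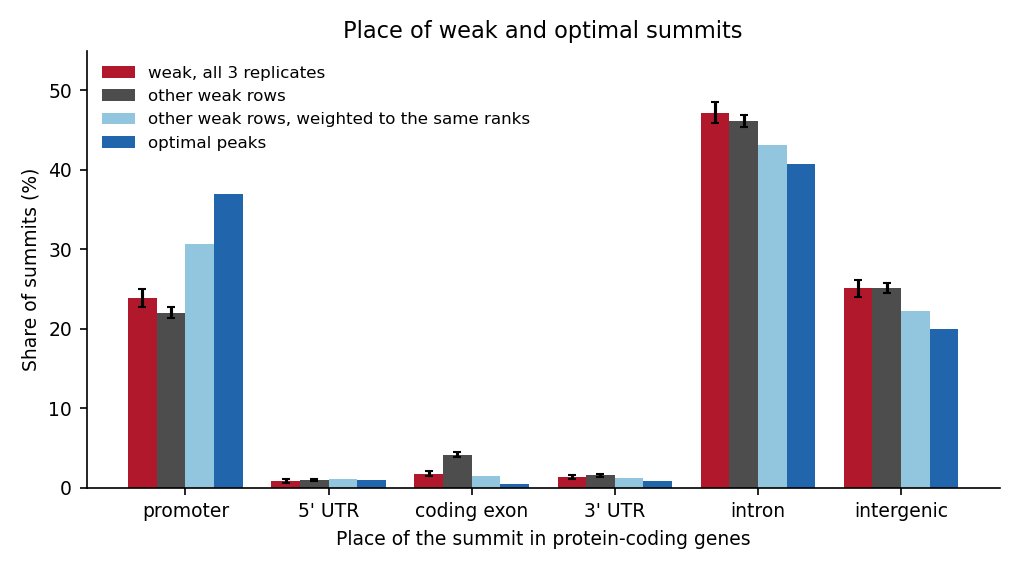
Share of summits (percent) in each place class for repeated weak peaks, the other weak rows at all ranks, the other weak rows weighted to the same ranks, and the optimal peaks. Error bars are Wilson 95% intervals; the promoter share is 23.9%, 22%, 30.7% and 37% in that order.

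The share at promoters also followed the number of replicates, in a direction that depended on the ranks. In the upper band it was 26.8% of rows with a summit in 3 replicates, 31.3% with 2, 38.8% with 1 and 39.4% of the 33 rows with none. In the middle band it was 15.8%, 21.5%, 23.5% and 28.9%, and in the lower band the order was the opposite, with 21.6%, 18.9%, 16.1% and 15.9%. Compared only with rows found in exactly 2 replicates, at equal rank, the repeated ones were still at promoters less often, a difference of -5.42 points (exact conditional test over rank bins, adjusted p = 1.05e-10).

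The distances to replicate summits are given by place as a description. In the upper band 50.9% of promoter rows, 57.9% of intron rows and 58.2% of rows between genes had a summit within 100 bp in all replicates. The farthest of the 3 nearest replicate summits lay over 300 bp away for 15.2% of promoter rows, 9.13% of intron rows and 9.89% of rows between genes. In the middle band 15.1%, 21.4% and 21.9% had a summit in all replicates, in the same order, but the shares over 300 bp away were 42.3%, 42.7% and 38.7%, so promoters did not stand above introns there.

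Within the replicate lists the mean promoter difference was larger at all ranks and smaller at equal rank than in the pooled list. In each replicate list, rows ranked below 7129 with a summit in both other lists were set against the remaining rows of those ranks. Their promoter share was higher by 5.17, 3.74 and 1.56 points in replicates 1 to 3, a mean of 3.49 ± 1.82 (SD, n = 3). Weighted to equal rank the differences were 0.485, -1.06 and -4.04 points, a mean of -1.54 ± 2.3 (SD, n = 3), so the sign was not the same in every replicate and the mean was smaller than the spread. The lower share of coding exons was seen in each, with a mean of -4.15 ± 1.45 points, and of -2 ± 0.995 at equal rank (SD, n = 3). The pooled list gave 0.246 points at equal rank, which did not pass, so pooled and replicate lists differed there.

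At promoters the repeated weak peaks stood close to the start. Of the 1413, 644 (45.6%) had the summit within 100 bp of a start site, against 1353 of 3733 (36.2%) of the other weak rows at promoters. These shares are at all ranks, were not matched for rank and were not tested. The quartiles of the repeated ones stood at -146 and 88 bp from the start, where negative is upstream, and 53.9% lay upstream, against 51.3% of the others. Repeated peaks at promoters were the strongest of the classes, with a median signal value of 137, and those in coding exons the weakest with 99.4.

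The core of the Knirps site was no more frequent at the repeated weak peaks than at the others beyond the test's threshold. AGAGCA, on either strand, stood within 100 bp of 11.7% of repeated summits and 10.7% of other weak summits (Fisher's exact test, adjusted p = 0.0927 over 14 words), against 14.1% of optimal summits and 8.92% of windows 600 bp beside the repeated ones. At equal rank the difference was 0.267 points (exact conditional test over rank bins, adjusted p = 1). With only replicates 1 and 2 required, the 11.5% and 10.5% passed the threshold at all ranks (Fisher's exact test, adjusted p = 0.0465). Windows 600 bp beside the other weak summits held the core in 9.92% of cases. The share at both kinds of weak peak thus lay between that of their flank and that of optimal peaks, narrowly above the flank for the other weak rows. Summits were not tested against flanks.

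Of the other words, 4 passed at all ranks. CACACA, a repeat, stood at 25.2% and 21.9% (adjusted p = 3.36e-06), GAGAG, bound by GAGA factor, at 28.8% and 26.4% (adjusted p = 0.00268), TTATCA, the word of GATA factors, at 13.6% and 12.2% (adjusted p = 0.0177), and TAATCC, the word of Bicoid, at 4.81% and 5.66% (adjusted p = 0.044, all Fisher's exact test). GAGAG overlaps AGAGCA by up to 4 letters. At equal rank 0 of the 14 words passed the exact conditional test over rank bins after adjustment, and 3 (the Myc type of E-box, CACGTG, and the words of Caudal and of GATA factors) had an unadjusted p under 0.05, each with the higher share in the repeated peaks. Within each band, Fisher's exact test also passed 0 words. The count of words that passed at all ranks was 2 without replicate 1, 3 without replicate 2 and 7 without replicate 3. The Zelda word CAGGTA stood at 5.49% and 4.78% (Fisher's exact test, adjusted p = 0.0927). Median G and C content was 45% at repeated and 44.8% at other weak summits, and 40.3% in the flank of the repeated ones.

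No chromosome arm and no class of small RNA gene differed beyond the threshold of the test between repeated and other weak peaks. Chromosome X held 17.8% of them and 18.1% of the others (Fisher's exact test, adjusted p = 0.699 over 6 arms), near its 17.6% of the assembled length, whereas it held 14.1% of optimal peaks. Starts of tRNA genes lay within 500 bp of 19 repeated weak summits (0.321%) and 70 others (0.413%, Fisher's exact test, adjusted p = 0.719 over 5 classes, and 0.0456 without replicate 3), and starts of miRNA genes within reach of 17 (0.287%) and 30 (0.177%, adjusted p = 0.659). No rRNA gene start lay near any of the 5922, which allows a share of up to 0.0507%. The same held for the 16949 other weak rows and for the optimal peaks, so this is not particular to the repeated ones. Annotated transposable elements held 15 repeated weak summits (0.253%) and 45 others (0.266%).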

How the data were processed

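The repeated weak peaks (members), the gene lists, the words and the tests were chosen with earlier results of these data known. Per the notes deposited with the samples, each of the 3 biological replicates and their pooled alignments had a list of peaks and background called by the authors against 1 control alignment, on dm6 and on dm3. Neither the aligner, the peak caller and their versions nor the threshold behind the optimal list is given in the sources used here. Peak strength over the control is the signal value that the authors deposited. Its scale is not stated, and it served only to rank peaks within a list. The −log10 q values that the authors deposited entered no result. Summits come from the deposited offsets from peak starts. The lists hold no numbers of reads, so depth is unknown, and intervals cover counting error over peaks only.

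Summits on the arms of dm6 were set against Release 6 sequence from RefSeq and 13945 protein-coding genes of Ensembl release 115, with 19252 distinct start sites. A summit near a start site counted as promoter, and any other took the first class that held it, from exons (UTRs before and after coding sequence) to introns, over any protein-coding transcript. Sequence between genes may hold noncoding genes. Coordinates are 1-based, and dm3 lists were only counted. Offsets from start sites are positive downstream. Words were searched on both strands in windows of 201 bp. Shares were compared by Fisher's exact test (SciPy 1.17.1), two-sided, with Benjamini-Hochberg adjustment and a threshold of 0.05. The comparison at equal rank was added after the data were seen. It used 20 bins of rank and the exact conditional test, two-sided, that extends Fisher's test to several tables. Code was tested on simulated data. Python 3.11.15, pandas 2.3.3, numpy 2.4.6 and statsmodels 0.14.6 were used.

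Genes named by rule are all gap and pair-rule genes, the nearest genes of the 12 strongest members, the 8 genes with the most members, and 2 genes of every further list, those whose territory has the strongest member. Genes named outside that rule are said to be chosen after their values were seen, and a neighbour is named where its start site is the nearest. Alternatives changed the summit distance, the promoter width, the ranks, the replicates required, the rows near optimal peaks, the territory and the word window.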

Additional observations from a re-analysis of the deposited data

How the results depend on the processing

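The number of repeated weak peaks was 2820 with summits within 50 bp and 9986 within 200 bp, 1530 in the middle and 139 in the lower band of ranks, and 8326 to 9333 with 1 replicate left out. On dm3 the same rule gave 6198. The genes with one in the territory numbered 6669 to 6983 with 1 replicate left out, 3820 and 7714 with territories of 2 and 10 kb, and 2863 by nearest start site.

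The promoter difference of 1.84 points was 0.979 to 3.53 with 1 replicate left out, 0.964 with promoters of 1000 bp and 1.6 without rows near optimal peaks. It was -5.83, -6.58 and 4.65 in the upper, middle and lower bands. With the other rows weighted to the same ranks it was -6.82, and under that weighting -3.13 and -8.69 with 50 and 200 bp, -3.73, -5.03 and -6.79 without replicate 1, 2 and 3, -7.91 without rows near optimal peaks, -6.77 with mutually nearest summits, which leaves out only 4 of the 5922 and so tests little, -4.51 with promoters of 250 bp and -5.42 against rows found in 2 replicates. These weighted values passed the threshold.

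The coding exon difference of -2.4 points was -2.52 to -2.16 with 1 replicate left out, and 0.0903, -0.0626 and -1.26 in the bands. Weighted it was 0.246, with the same changes 0.0994 (50 bp), -0.465 (200 bp), 0.189, 0.0508 and -0.161 (without replicate 1, 2 and 3), 0.32, 0.248, 0.0954 and 0.252, and only the value at 200 bp passed (exact conditional test, adjusted p = 2.03e-04). The intergenic difference of -0.0574 points became 2.27 and 3 in the upper and middle bands. Weighted it was 2.83, then 0.514 (50 bp), 3.31 (200 bp), 1.16, 1.86 and 3.63 (without replicate 1, 2 and 3), 3.4, 2.79, 2.71 and 2.35, of which those at 50 bp and without replicate 1 did not pass.

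The count of words past the threshold, 4, was 1 with 50 bp, 2 with a word window of 50 bp either side, 2 to 7 with 1 replicate left out, and 0 in each band and under weighting. The AGAGCA difference of 0.978 points was 0.39 to 0.964 with 1 replicate left out. TATAAA, at -0.0952 points, was 0.309, 1.36 and -1.64 without replicate 1, 2 and 3. GAGAG turned to -0.0173 and -0.652 in the upper and middle bands and -0.772 weighted, and CACACA to -0.304 in the upper band. For all these changes the cause was not tested. No paired analysis was possible because the replicates form 1 group.

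Limits are those of peak lists: no reads, 3 replicates, lists capped at 30000 rows, and peaks that are not independent of their neighbours. Rank took part in the choice of members, so comparisons at all ranks carry the difference in strength.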
